A study of Mus musculus with 6 samples.

Results

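The 10 genes *Acly*, *Acss2*, *Acaca*, *Acacb*, *Fasn*, *Me1*, *G6pdx*, *Pgd*, *Slc25a1* and *Idh1* supply the cytosol of the liver cell with acetyl-CoA and NADPH and turn both into fatty acids. They were chosen by name, as rows whose Ensembl mouse gene ID carries 1 of these symbols, and make up 10 of the 49671 genes in the count table. Liver RNA was sequenced from 6 male mice, 3 SHMT2 fl/fl and 3 SHMT2 HKO, which the labels call WT and KO. Both groups carry the floxed *Shmt2* allele, and SHMT2 HKO mice also carry Albumin-Cre, a transgene driven by a hepatocyte promoter, and these data do not measure *Shmt2* by cell type. The AMLN diet, a feed with added cholesterol and much fat and fructose, was given to all 6 mice for 18 weeks, starting at an age of 4 weeks, and no chow-fed group is among these samples. Of the 10 genes, 8 were higher in SHMT2 HKO liver than in SHMT2 fl/fl liver, from 1.59-fold for *Acaca* to 4.61-fold for *Acacb*, while *G6pdx* was lower and *Pgd* did not pass the test.

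New fatty acids are built from acetyl-CoA in the cytosol, but most acetyl-CoA is made inside mitochondria. It leaves them as citrate through the carrier SLC25A1 and is released again by ATP citrate lyase, encoded by *Acly*. ACSS2 offers another source by activating free acetate. The acetyl-CoA carboxylases, ACC1 from *Acaca* and ACC2 from *Acacb*, make malonyl-CoA. ACC1 serves fatty acid synthesis in the cytosol, while ACC2 sits at the outer mitochondrial membrane, where malonyl-CoA holds back the entry of fatty acids for oxidation. Fatty acid synthase, encoded by *Fasn*, joins the carbon units and consumes NADPH at each reduction. That NADPH comes from malic enzyme (*Me1*), cytosolic isocitrate dehydrogenase (*Idh1*) and the oxidative steps of the pentose phosphate pathway (*G6pdx* and *Pgd*). SREBP-1c and ChREBP, encoded by *Srebf1* and *Mlxipl*, are the transcription factors best known for driving many of these genes in the fed liver.

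Counts on genes ranged from 23090837 to 34089722 per mouse. *Shmt2*, the deleted gene, stood at 94.6, 109 and 93.9 CPM in the SHMT2 fl/fl group and at 24.9, 28.3 and 19.3 CPM in the SHMT2 HKO group, where CPM is the count over the library size after TMM scaling, which sets the bulk of genes equal between libraries. It fell by 2.04 log2 units (SE 0.16, adjusted p = 0.000639), and an exact permutation test over the 6 mice gave p = 0.10, the smallest that 3 against 3 allows. Of 16089 genes tested with edgeR, 4663 were called at an adjusted p under 0.05. The ERCC spike-in RNAs, a synthetic set mixed into every sample, took 1.35% to 2.75% of counts. Their share was 1.42% to 1.84% in SHMT2 fl/fl mice and 2.75%, 2.31% and 1.35% in SHMT2 HKO mice 1, 2 and 3. Whether they were added per RNA mass or per tissue is not given in the sources used here. Scaling to them in place of TMM moved the median gene by -0.69 on the log2 scale, or -0.40 with library size alone. With ERCC scaling the median gene of SHMT2 HKO mice 1, 2 and 3 stood at -1.17, -1.0 and -0.02 relative to the SHMT2 fl/fl mean. Levels and changes below are therefore relative to the bulk of genes. The defining hepatocyte markers were abundant in every library. Nothing in the labels names separate litters or days, and p-values set the difference between genotypes against the spread between these mice.

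Sequences upstream of 3 of the risen genes are shown because they hold the letters that 2 general promoter factors bind, and because no annotated exon lies in them. Each is the 160 bases before the RefSeq start on GRCm38.p6, read 5′ to 3′ along the gene. Capitals mark CCAAT, the box of NF-Y, and GGGCGG, the GC box of Sp1, on either strand, so that ATTGG and CCGCCC are the same letters read on the other strand.
Fasn, chr11:120824548-120824707, minus strand: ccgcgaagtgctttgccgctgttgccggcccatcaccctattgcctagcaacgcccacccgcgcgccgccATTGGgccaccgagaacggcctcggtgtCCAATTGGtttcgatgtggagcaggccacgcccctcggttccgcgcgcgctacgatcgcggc
Slc25a1, chr16:17928220-17928379, minus strand: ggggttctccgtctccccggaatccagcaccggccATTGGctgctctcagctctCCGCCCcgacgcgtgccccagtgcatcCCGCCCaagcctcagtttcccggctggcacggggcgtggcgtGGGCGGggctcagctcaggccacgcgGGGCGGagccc
Acly, chr11:100528001-100528160, minus strand: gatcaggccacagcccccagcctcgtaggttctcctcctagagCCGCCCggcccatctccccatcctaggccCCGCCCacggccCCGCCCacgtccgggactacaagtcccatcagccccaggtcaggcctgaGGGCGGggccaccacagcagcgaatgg

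The *Fasn* stretch held CCAAT 3 times, at positions -90, -62 and -59 counted from the start, and the last pair overlap as CCAATTGG. It held no GC box. The *Slc25a1* stretch held 1 CCAAT box and 4 GC boxes, and the *Acly* stretch held 4 GC boxes and no CCAAT. Over the full windows of 250 bases before and 50 after the start, 13 windows matched the 10 genes, since *Me1*, *Pgd* and *Idh1* have 2 each. CCAAT was found in 8 of the 13 windows, against 37.4% of all 32851 windows in the table, and GGGCGG in 8, against 35.7%. *Acaca* and *G6pdx* had no CCAAT, and *Pgd*, which was not called, had it at positions -46 and -9. The E-box CACGTG, bound by USF factors, lay only in the *Slc25a1* window at position -239, while 7.15% of all windows held it. The sterol regulatory element searched as TCACNCCAC on both strands was in none of the 13 windows and in 1.24% of all windows. The *Acaca* window covers a start inside the gene, and both that gene and *Acacb* have other annotated starts.

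The genes that bring acetyl-CoA into the cytosol were all higher in SHMT2 HKO liver. *Slc25a1*, the citrate carrier, measured 190, 187 and 223 CPM in SHMT2 fl/fl mice 1 to 3, against 354, 443 and 325 CPM in SHMT2 HKO mice 1 to 3, an order of groups and mice kept below. The lowest SHMT2 HKO mouse stood above the highest SHMT2 fl/fl mouse, and the gene rose by 0.90 on the log2 scale (95% interval 0.53 to 1.28, SE 0.16, adjusted p = 0.00597). *Acly*, whose product splits the exported citrate, measured 113, 105 and 106 CPM against 213, 500 and 255 CPM. It rose by 1.58 (interval 0.88 to 2.27, SE 0.30, adjusted p = 0.00749), again without overlap. *Acss2*, which activates acetate, measured 51.4, 51.4 and 55.1 CPM against 102, 458 and 153 CPM. Its SHMT2 fl/fl mice were close to each other, whereas SHMT2 HKO mouse 2 was 8.71 times the SHMT2 fl/fl mean and mouse 1 was 1.95 times that mean. *Acss2* rose by 2.18 (interval 0.93 to 3.42, SE 0.53, adjusted p = 0.0225), with the widest interval of the 10 genes. Exons of *Acss2* share 395 bp with *Gss* on the other strand, and the strand setting of the counting is not given in the sources used here. *Gss* itself was at 137, 123 and 144 CPM against 125, 107 and 127 CPM.

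Both acetyl-CoA carboxylase genes were called, with different sizes of change. *Acaca*, for the cytosolic enzyme, measured 99.9, 97.7 and 108 CPM against 122, 192 and 170 CPM, a rise of 0.66 (interval 0.26 to 1.07, SE 0.17, adjusted p = 0.0242) that turned to -0.02 with ERCC scaling. *Acacb*, for the mitochondrial-membrane enzyme, measured 48.5, 59.3 and 51.0 CPM against 117, 348 and 267 CPM. It rose by 2.20 (interval 1.38 to 3.03, SE 0.36, adjusted p = 0.00430). Neither gene's groups overlapped, but for *Acaca* SHMT2 HKO mouse 1 was only 1.20 times the SHMT2 fl/fl mean, beside 2.21 times for *Acacb*. *Fasn*, the last enzyme of the route, measured 324, 287 and 295 CPM against 438, 1386 and 908 CPM. It rose by 1.59 (interval 0.75 to 2.44, SE 0.37, adjusted p = 0.0152), and its SHMT2 HKO mouse 1 was 1.45 times the SHMT2 fl/fl mean while mouse 2 was 4.59 times that mean.

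The NADPH genes did not move as one group. *Me1*, which makes NADPH as malate is turned to pyruvate, measured 140, 107 and 131 CPM against 242, 728 and 404 CPM. It rose by 1.86 (interval 1.02 to 2.71, SE 0.37, adjusted p = 0.00842). *Idh1*, which makes NADPH from isocitrate in the cytosol, measured 231, 207 and 215 CPM against 379, 488 and 355 CPM. It rose by 0.90 (interval 0.53 to 1.27, SE 0.16, adjusted p = 0.00565), the same size as *Slc25a1*. *G6pdx*, the first and rate-limiting enzyme of the pentose phosphate pathway, measured 16.0, 15.6 and 16.9 CPM against 7.30, 12.3 and 10.6 CPM. Every SHMT2 HKO mouse was below every SHMT2 fl/fl mouse, and the gene fell by 0.69 log2 units (interval -1.13 to -0.24, SE 0.19, adjusted p = 0.0306). *Pgd*, which makes the other NADPH of the same pathway, measured 106, 82.6 and 88.6 CPM against 78.1, 125 and 96.6 CPM. The groups of *Pgd* overlapped, and its difference of 0.11 (interval -0.31 to 0.54, SE 0.19, adjusted p = 0.688) turned to -0.32 with library size alone, -0.61 with ERCC scaling and -0.08 without SHMT2 HKO mouse 2. *G6pdx* had only 172 to 653 counts per mouse, and its exons share 418 bp with *Ikbkg* on the other strand, which was at 72.9, 52.0 and 57.3 CPM against 53.8, 58.2 and 69.4 CPM.

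**Figure D1:**
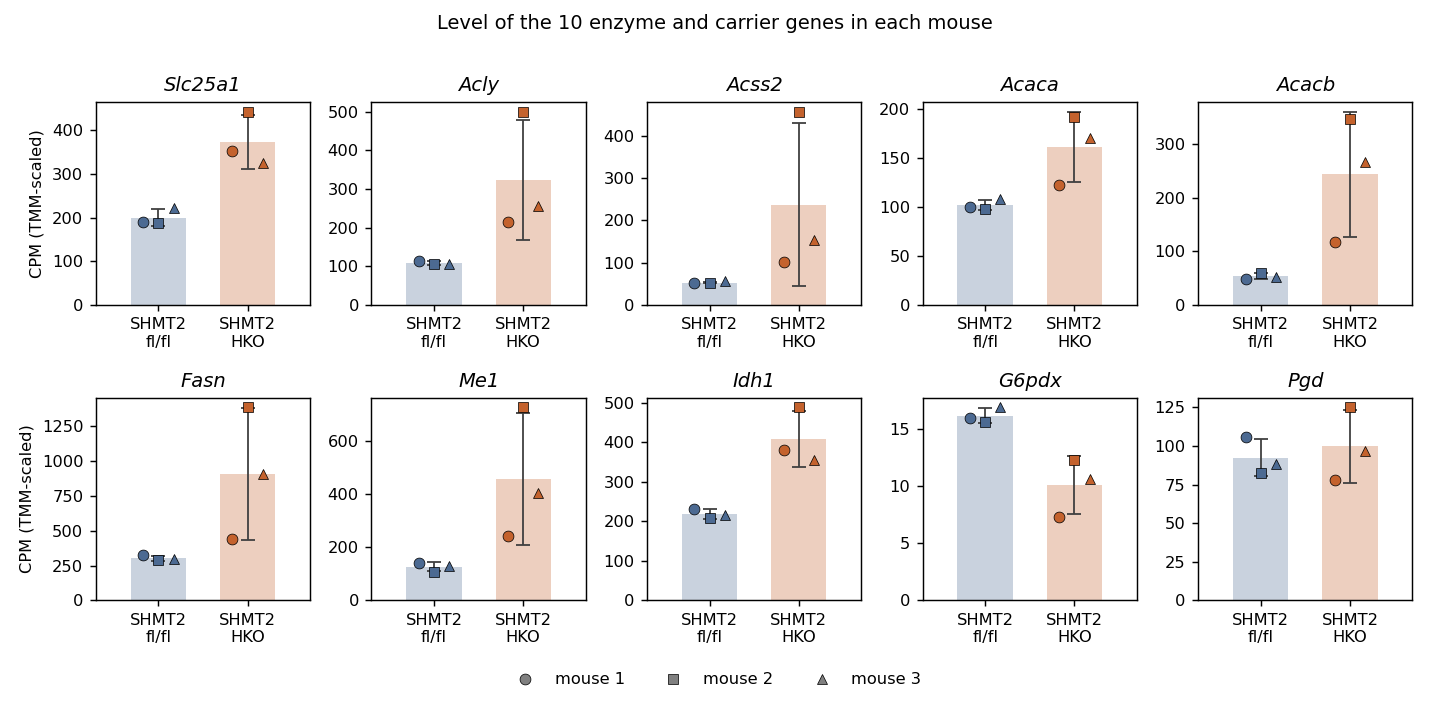
Level of each gene in each mouse (y axis, TMM-scaled CPM from 0, one scale per panel). Bars are means of 3 mice, error bars are SD and symbols mark mice 1, 2 and 3. All SHMT2 HKO points lie above the SHMT2 fl/fl points for 8 genes and below them for *G6pdx*, the groups of *Pgd* overlap, and SHMT2 HKO mouse 2 has the highest SHMT2 HKO value in every panel.

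All 10 genes passed the filter on low counts, through levels present in both groups. Of them, 8 were called higher, against 12.5% of all genes tested, and 1 was called lower, against 16.5%. The same 8 had every SHMT2 HKO mouse above every SHMT2 fl/fl mouse, which held for 21.9% of all genes, and *G6pdx* was the 1 with every SHMT2 HKO mouse below, which held for 25.0%. This separation depended on the scaling. It also held for these 8 genes with upper-quartile scaling. With library size alone the groups of *Acaca* and *Fasn* overlapped, and with ERCC scaling those of all 8 did, *Acacb* and *Acss2* included. The share of all genes separated in this way was computed with TMM only. With ERCC scaling 107 of all genes tested were called higher and 2759 lower, so the loss of separation by these 8 genes was not set apart from a shift of the whole library. The median log2 fold change of the 10 genes was 1.24, beside 0.03 for all genes tested and 0.74 for the genes called higher. Together the 10 genes took a share of all gene counts of 0.159%, 0.138% and 0.145% in the SHMT2 fl/fl group and of 0.166%, 0.375% and 0.289% in the SHMT2 HKO group. On this plain share, which uses no TMM factor, SHMT2 HKO mouse 1 was barely above the SHMT2 fl/fl range.

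The sizes of the changes depended on the scaling, and the 10 genes shifted with all others. With ERCC scaling the median of the 10 genes was 0.47 and that of all genes -0.69, a gap of 1.16 beside 1.21 with TMM. Under it *Acacb* (1.57, adjusted p = 0.00805) and *Acss2* (1.34, adjusted p = 0.0286) were called, and *Acly* (0.80), *Fasn* (0.90), *Me1* (1.11), *Slc25a1* (0.13), *Idh1* (0.14) and *G6pdx* (-1.37) were not, with adjusted p from 0.0624 to 0.821. With library size alone *Acaca* was at 0.25 (adjusted p = 0.342), and the other 7 risen genes and *G6pdx* were called. Without a filter on low counts *Acss2* (adjusted p = 0.142), *Fasn* (0.0694) and *Me1* (0.0554) lost the call.

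Leaving out single mice mattered most for 4 genes. Without SHMT2 fl/fl mouse 1, 2 or 3 the adjusted p was 0.0751, 0.0867 and 0.0750 for *Acss2*, 0.0845, 0.0896 and 0.0719 for *Acaca*, 0.0525, 0.0628 and 0.0613 for *Fasn*, and 0.0879, 0.0779 and 0.109 for *G6pdx*. Their fitted changes then ranged from 2.16 to 2.21, 0.64 to 0.71, 1.56 to 1.65 and -0.71 to -0.65, which is close to the values with all mice. Without SHMT2 HKO mouse 2 *Acaca* was at 0.52 (adjusted p = 0.0772) and *Acss2* at 1.28 (adjusted p = 0.00861), down from 2.18. The calls of *Acly*, *Acacb*, *Me1*, *Slc25a1* and *Idh1* held whichever mouse was left out.

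**Figure D2:**
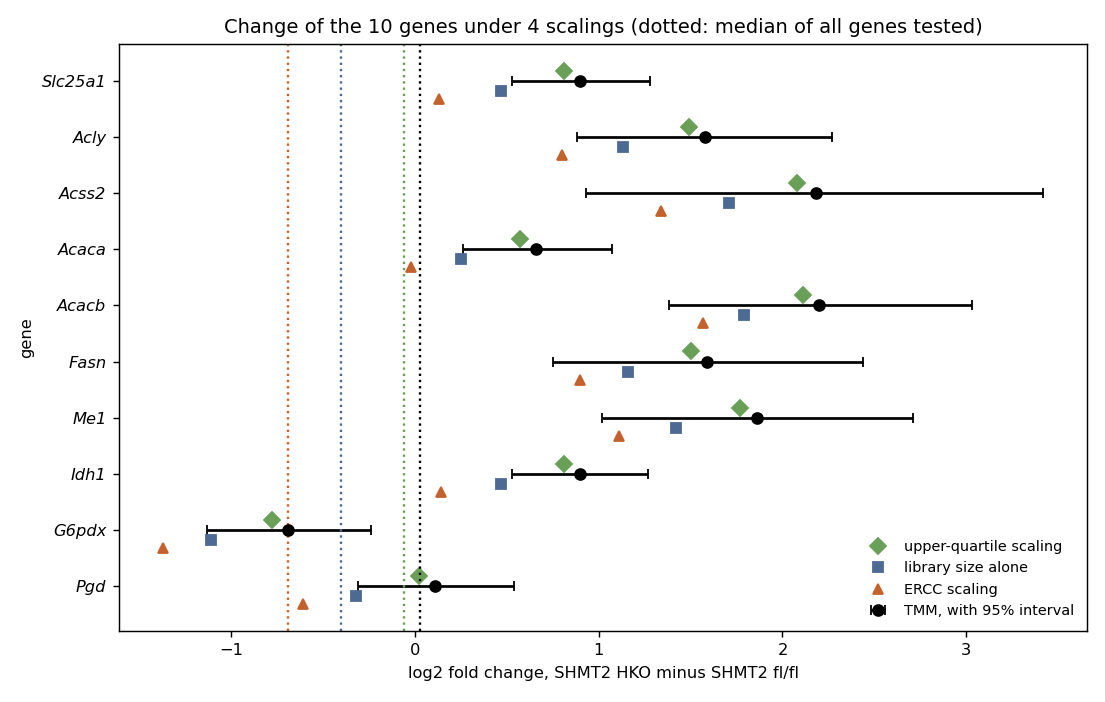
Log2 fold change between SHMT2 HKO and SHMT2 fl/fl liver (x axis) for each gene (y axis) under 4 scalings, with the 95% interval of the TMM fit as a horizontal bar. Dotted vertical lines give the median of all genes tested in the same color, from 0.03 with TMM to -0.69 with ERCC scaling. Every gene shifts left with the dotted line, and *Acaca* and *Pgd* cross 0.

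Levels can be set beside each other only per length, here as CPM per kb of annotated exon. In SHMT2 fl/fl liver *Slc25a1* (92.5 ± 9.18 CPM per kb, SD, n = 3) and *Idh1* (78.5 ± 4.51) were highest. *Me1* (32.7 ± 4.44), *Fasn* (27.6 ± 1.79), *Acly* (20.5 ± 0.817) and *Pgd* (14.3 ± 1.88) followed. *Acaca* (5.96 ± 0.309), *Acacb* (5.49 ± 0.588), *G6pdx* (5.25 ± 0.227) and *Acss2* (5.18 ± 0.213) were lowest. Neighbors in this order overlapped between mice among the last 4 genes and for *Me1* and *Fasn*, and the other neighbors did not overlap. In SHMT2 HKO liver *Acacb* (25.3 ± 12.2) and *Acss2* (23.4 ± 19.0) stood with the middle genes, above *Acaca* (9.45 ± 2.11). *Me1* (119 ± 64.4) reached the range of *Idh1* (147 ± 25.6) and *Slc25a1* (173 ± 28.3), and *G6pdx* (3.26 ± 0.819) was lowest. Exon length counts all annotated transcripts and is much longer than the coding length for *Acss2*, at 10163 against 2282 bp. Per coding length in SHMT2 fl/fl mice *Acss2* was above both carboxylase genes, and *Acacb* was lowest, at 7.16 per kb. In SHMT2 HKO mice *G6pdx* was lowest per coding length, at 6.49 per kb.

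**Figure D3:**
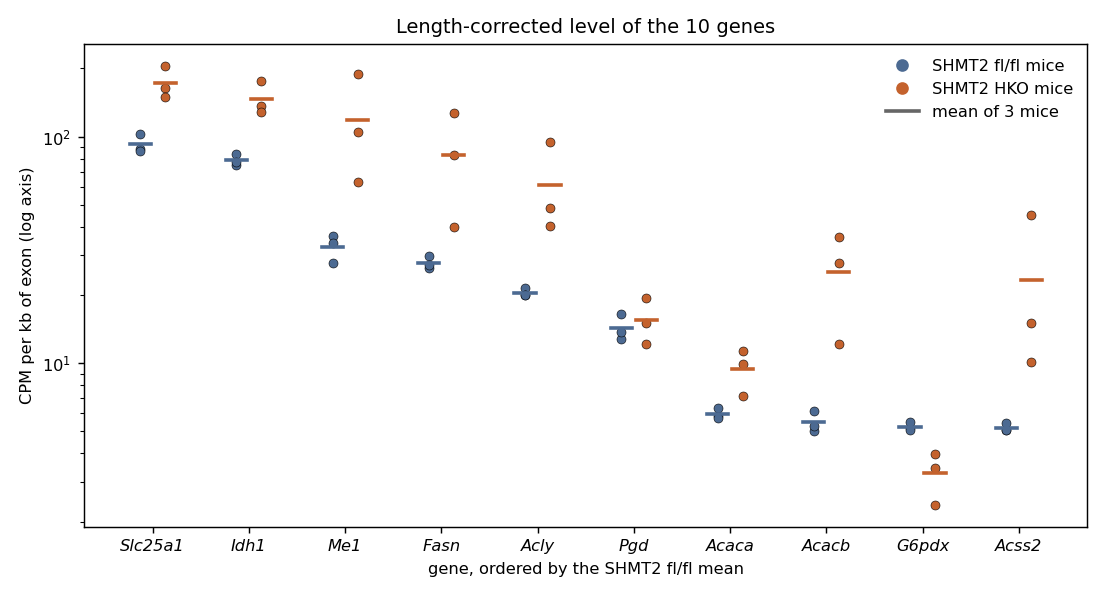
CPM per kb of exon (y axis, log scale) in each mouse, with genes ordered by their SHMT2 fl/fl mean (x axis) and horizontal lines at the mean of 3 mice. *Acaca*, *Acacb*, *G6pdx* and *Acss2* share a level near 5 to 6 in SHMT2 fl/fl mice and run from 2.37 for *G6pdx* in mouse 1 to 45.1 for *Acss2* in mouse 2 among the SHMT2 HKO mice.

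Ratios between genes of the same mouse do not depend on scaling. *Acacb* counts were 0.486, 0.607 and 0.473 times those of *Acaca* in SHMT2 fl/fl mice and 0.960, 1.81 and 1.57 times in SHMT2 HKO mice. *Me1* counts were 8.77, 6.86 and 7.71 times those of *G6pdx* in SHMT2 fl/fl mice and 33.1, 59.4 and 38.1 times in SHMT2 HKO mice, and this log2 difference of 2.45 was the largest among the 6 ratios computed. *Pgd* over *G6pdx*, both of the pentose phosphate pathway, went from 6.63, 5.30 and 5.23 to 10.7, 10.2 and 9.13. The SHMT2 HKO mice lay close together in that ratio although both genes varied between them.

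The ratio of *Acly* to *Slc25a1* was 0.593, 0.563 and 0.474 without the deletion against 0.601, 1.13 and 0.784 with it, and SHMT2 HKO mouse 1 stood only just above the SHMT2 fl/fl mice. *Idh1* over *Me1* fell from 1.65, 1.93 and 1.65 to 1.57, 0.670 and 0.878. *Acss2* over *Acly* was 0.455, 0.488 and 0.521 against 0.482, 0.916 and 0.598, and these groups overlapped. Each ratio is a description of 3 mice a group and was not tested.

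With TMM the order of the SHMT2 HKO mice was alike for most of the 10 genes. SHMT2 HKO mouse 2 had the highest TMM-scaled level of all 10, which held for 28.4% of all genes tested. The order mouse 2, mouse 3, mouse 1 held for 8 of the 10 genes, against 14.1% of all genes, and *Slc25a1* and *Idh1* had mouse 2, mouse 1, mouse 3. *Acss2* spread most, at 0.96, 3.12 and 1.54 above the SHMT2 fl/fl mean on the log2 scale in mice 1, 2 and 3, and *Slc25a1* least, at 0.82, 1.15 and 0.70. *G6pdx*, which fell, kept the order of the risen genes, at -1.15, -0.40 and -0.61. Among the genes called higher, 48.1% had mouse 2 highest. The pattern was not particular to the 10 genes. In the lists described below, mouse 2 was highest for 20 of 26 genes of citrate supply, 11 of them in the order 2, 3, 1. It was highest for 5 of 8 other acetyl-CoA genes, 7 of 13 partners and modifiers and 3 of 6 further pentose phosphate genes. It was highest for 5 of 11 other NADPH genes, 4 of 10 genes of mitochondrial fatty acid synthesis and 6 of 20 regulators.

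With ERCC scaling the order changed, and mouse 3 was highest for 9 of the 10 genes, all but *Acss2*. That scaling placed mouse 3 highest for 92.5% of all genes, so it bore mostly on the whole library. Library size alone kept mouse 2 highest for 8 genes, with *Acaca* and *G6pdx* highest in mouse 3. Mouse 1 was lowest of the SHMT2 HKO mice for all 10 genes with ERCC scaling and with library size alone, and for 8 with TMM. The median gene was also lowest in mouse 1 with ERCC scaling, at -1.17 against -1.0 and -0.02 in mice 2 and 3. The share of all genes lowest in mouse 1 was not computed. With 3 mice a correlation between genes was not computed.

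**Figure D4:**
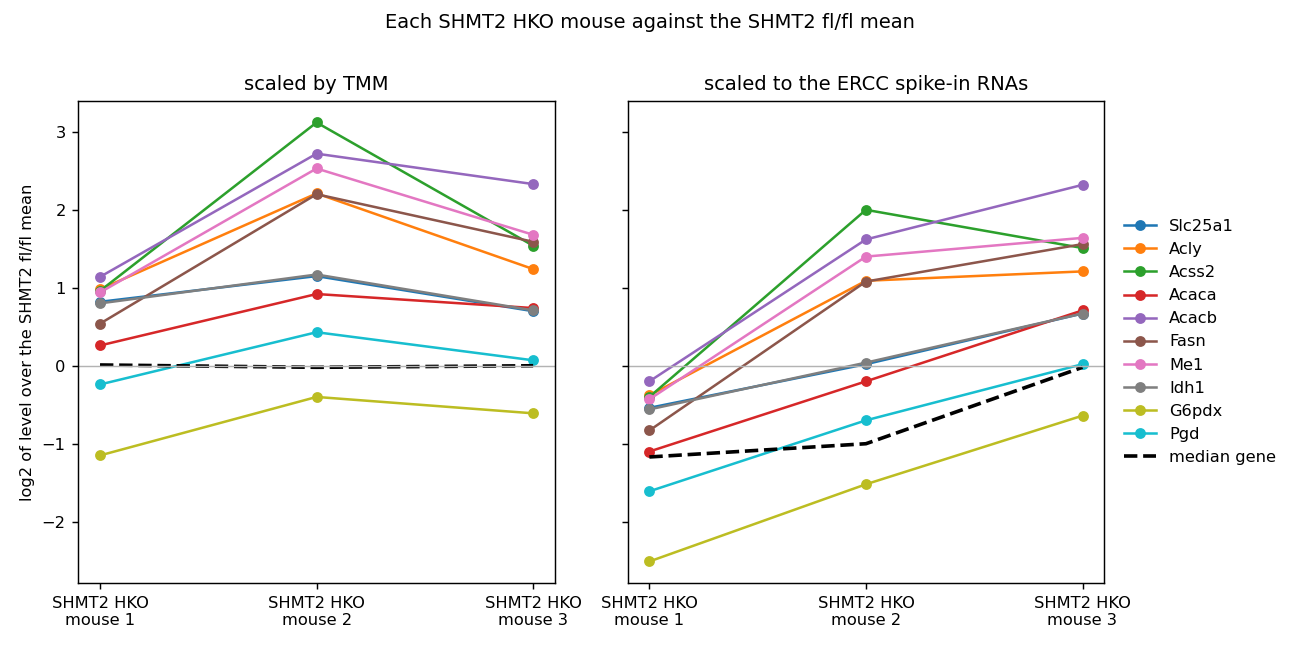
Log2 of each SHMT2 HKO mouse's level over the SHMT2 fl/fl mean (y axis) with TMM on the left and ERCC scaling on the right, where lines join the values of 1 gene and the dashed line is the median gene. With TMM all 10 genes peak in mouse 2, and with ERCC scaling 9 of them and the median gene, at -0.02, are highest in mouse 3.

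The spread itself differed between the groups for these genes. The median SD of log2 CPM over the 10 genes was 0.087 in SHMT2 fl/fl mice and 0.507 in SHMT2 HKO mice, beside 0.148 and 0.244 over all genes tested. The SD was larger in SHMT2 HKO mice for all 10 genes, as it was for 72.9% of all genes. *Acss2* had an SD of 1.12 in SHMT2 HKO mice, and 1.6% of all genes had a larger one. *Fasn* (0.840), *Acacb* (0.819), *Me1* (0.795) and *Acly* (0.649) also lay among the most variable, with 3.38% to 6.96% of all genes above them, whereas *Idh1* (0.243) and *Slc25a1* (0.230) lay near the median gene.

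Other isoforms of the same enzymes did not move as one group. *Acss3*, a mitochondrial acyl-CoA synthetase of the same family as *Acss2*, measured 1.57, 2.26 and 1.72 CPM against 3.35, 14.6 and 11.9 CPM and rose by 2.43 (SE 0.50, adjusted p = 0.00989). *Acss1*, the mitochondrial acetyl-CoA synthetase, measured 4.82, 6.21 and 4.98 CPM against 1.74, 1.06 and 1.18 CPM and fell by 2.0 log2 units (SE 0.27, adjusted p = 0.00212). Both calls held under all 15 alternatives run. The mitochondrial malic enzyme gene *Me2* was at 6.95, 8.69 and 5.77 CPM against 3.27, 3.80 and 5.39 CPM, with an adjusted p of 0.0514. *Me3* stayed at or below 1.49 CPM in every mouse (adjusted p = 0.670).

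*Idh2*, the mitochondrial counterpart of *Idh1*, measured 197, 253 and 229 CPM against 148, 236 and 219 CPM, and its difference of -0.17 (SE 0.20, adjusted p = 0.558) did not pass the test. *H6pd*, which makes NADPH inside the endoplasmic reticulum, measured 374, 344 and 454 CPM against 604, 508 and 538 CPM (0.49, SE 0.16, adjusted p = 0.0532). Per kb of exon *H6pd* stood at 74.7 ± 10.9 (SD, n = 3) in SHMT2 fl/fl mice, beside 5.25 ± 0.227 for *G6pdx*. *G6pd2*, an intronless relative of *G6pdx*, had 0 to 3 counts per mouse and was not tested.

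Among the transcription regulators of lipogenesis, *Mlxipl* was called with TMM, and *Srebf1* fell just short of the threshold. Of 20 listed regulators 7 were called higher and the other 13 were not called, with a median log2 fold change of 0.43. Of all genes tested 12.5% were called higher and 16.5% lower, and the counts of the lists below stand beside the same shares. *Srebf1*, for SREBP-1, measured 293, 228 and 320 CPM against 497, 402 and 350 CPM, and its 0.57 (SE 0.19) had an adjusted p of 0.0553. Every SHMT2 HKO mouse was above every SHMT2 fl/fl mouse for *Srebf1*, as for 21.9% of all genes. *Mlxipl*, for ChREBP, measured 202, 150 and 166 CPM against 416, 368 and 322 CPM and rose by 1.09 (SE 0.17, adjusted p = 0.00324). With TMM both were highest in SHMT2 HKO mouse 1 and lowest in mouse 3, unlike the 10 genes. The order of these mice depended on the scaling, and with ERCC scaling mouse 3 was highest for 92.5% of all genes. *Insig1*, a sterol-responsive gene whose product retains SREBP in the endoplasmic reticulum, rose by 1.27 (97.7, 77.7 and 88.7 CPM against 187, 268 and 183 CPM, adjusted p = 0.00258). Its relative *Insig2* rose by 0.90 (adjusted p = 0.00944), a call lost without SHMT2 fl/fl mouse 3 (adjusted p = 0.0503). With ERCC scaling *Mlxipl*, *Insig1* and *Insig2* were at 0.31, 0.5 and 0.15 and were not called (adjusted p = 0.61, 0.451 and 0.801).

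Among 13 partners and modifiers of the carboxylases and the synthase, 3 were called higher and 1 lower. *Thrsp*, which encodes the lipogenic protein Spot14, measured 86.1, 178 and 102 CPM against 479, 1451 and 630 CPM. It rose by 2.81 (SE 0.47, adjusted p = 0.00517) and with TMM had the mouse order of *Fasn*, with mouse 2 highest and mouse 1 lowest. *Prkab2*, a subunit of the kinase AMPK, which inactivates the carboxylases, measured 10.7, 8.65 and 10.1 CPM against 3.40, 3.65 and 5.83 CPM and fell by 1.19 log2 units (SE 0.24, adjusted p = 0.00861). The other listed AMPK subunit genes were not called, namely *Prkaa1* (-0.27), *Prkaa2* (0.44), *Prkab1* (-0.3), *Prkag1* (0.01) and *Prkag2* (0.33). *Btd*, which recycles biotin, the carboxylase cofactor, rose by 0.69 (adjusted p = 0.00684). *Mlycd*, which breaks malonyl-CoA down, rose by 0.49 (adjusted p = 0.0305), and with ERCC scaling these last values were -0.06 and -0.22.

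Most genes listed around the mitochondrial supply of citrate were called, and some of them encode inhibitors of pyruvate dehydrogenase. Of 26 listed genes for citrate supply and pyruvate cycling, 17 were called higher and 1 lower, with a median of 0.64. Of all genes tested 12.5% were called higher and 16.5% lower. *Pdk1*, a kinase that shuts down pyruvate dehydrogenase, rose by 1.72 (27.3, 26.1 and 25.9 CPM against 62.4, 116 and 83.0 CPM, adjusted p = 0.00157). *Pcx*, pyruvate carboxylase, which refills oxaloacetate, rose by 1.02 (356, 410 and 405 CPM against 689, 935 and 746 CPM, adjusted p = 0.00443). *Pdp2*, a phosphatase that reactivates pyruvate dehydrogenase, rose by 0.89 (adjusted p = 0.00637). With ERCC scaling *Pdk1*, *Pcx* and *Pdp2* were at 1.0, 0.3 and 0.12 and were not called (adjusted p = 0.165, 0.603 and 0.862). *Pdk3*, another kinase of that complex, fell by 1.28 log2 units from 2.15, 2.52 and 2.37 CPM to 1.10, 0.760 and 1.02 CPM (adjusted p = 0.0127), a call lost without SHMT2 fl/fl mouse 2 (adjusted p = 0.0525) or 3 (0.0577).

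Of 8 other genes that handle acetyl-CoA, 5 were called higher and 1, *Acss1*, lower, with a median of 0.76. Beside *Acss3*, *Acat2*, a cytosolic thiolase, rose by 1.39 (34.0, 33.1 and 34.9 CPM against 65.1, 128 and 73.5 CPM, adjusted p = 0.00540) and *Acot12*, a cytosolic acetyl-CoA hydrolase, by 0.77 (77.2, 81.4 and 81.1 CPM against 123, 141 and 144 CPM, adjusted p = 0.00307). Of 11 other NADPH genes tested from a list of 12, 3 were called higher and 1 lower. *Aldh1l1* (1.06, adjusted p = 0.0283), *Mthfd1* (0.74, adjusted p = 0.0120) and *Nadk2* (0.60, adjusted p = 0.0487) rose, the first pair being folate enzymes of the cytosol, while *Mthfd2*, a folate enzyme of mitochondria, fell by 1.19 log2 units (8.59, 6.58 and 7.72 CPM against 2.25, 2.94 and 4.84 CPM, adjusted p = 0.0189).

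The rest of the pentose phosphate pathway did not follow *G6pdx* as a group. Of 6 further genes, 2 were called higher and 1 lower, with a median of 0.52. *Taldo1* (0.61, adjusted p = 0.0289) and *Tkt* (0.59, adjusted p = 0.0358), of the non-oxidative arm, rose with TMM and stood at -0.15 and -0.12 with ERCC scaling. *Rpia*, which isomerizes ribose 5-phosphate, fell by 0.58 log2 units (adjusted p = 0.0441). Of 10 genes for fatty acid synthesis inside mitochondria, a separate machinery that feeds lipoate synthesis, 5 were called higher and 1 lower, with a median of 0.52. *Cbr4* (0.62), *Ndufab1* (0.57) and *Acsf3* (0.57) rose with adjusted p from 0.0151 to 0.0355, each turning negative with ERCC scaling, and *Lipt2* fell by 0.71 (adjusted p = 0.0286).

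Over the 7 lists, 42 of 94 genes tested were called higher and 6 lower, beside 12.5% and 16.5% of all genes. In both directions together 23 were called with library size alone, 6 with ERCC scaling and 19 to 55 when 1 mouse was left out. Of the 26 listed genes named above as called, 12 kept the call whichever mouse was left out. The other 14 lost it without at least 1 SHMT2 fl/fl mouse, with adjusted p up to 0.156 over the single mice left out. With ERCC scaling 9 turned sign, which were *Cbr4*, *Ndufab1*, *Acsf3*, *Mthfd1*, *Nadk2*, *Btd*, *Mlycd*, *Taldo1* and *Tkt*. *Thrsp*, *Prkab2*, *Acss1* and *Acss3* were called in every alternative.

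**Figure D5:**
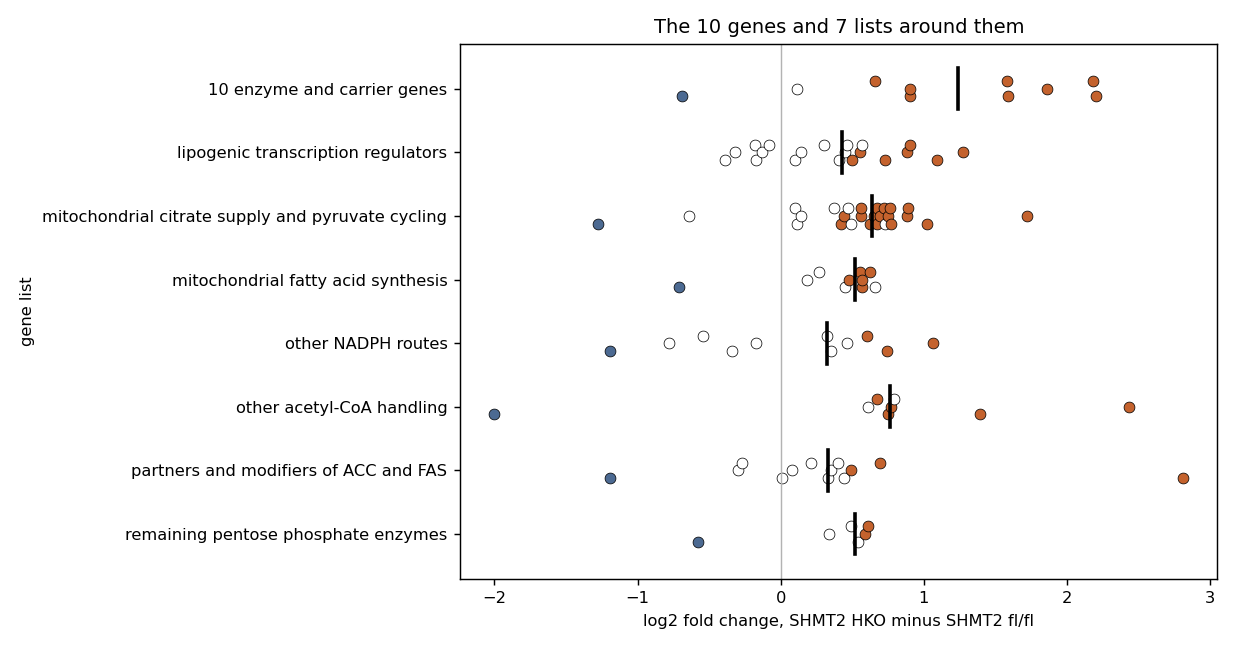
Log2 fold change (x axis) of the 10 genes and of the tested genes of 7 lists (y axis), with filled points for genes called (orange higher, blue lower), open points for genes not called and black bars at list medians. The median of the 10 genes is 1.24, and those of the lists run from 0.32 to 0.76.

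Genes whose pattern over the 6 mice was nearest to the median pattern of the 10 were found by Euclidean distance between log2 profiles, over 12837 other genes with a mean of at least 1 log2 CPM. That median pattern stood at 0.81, 1.68 and 0.99 in SHMT2 HKO mice 1, 2 and 3. The nearest gene was *Cyb5b* (distance 0.221), a cytochrome b5 of the outer mitochondrial membrane, at 235, 211 and 256 CPM against 418, 673 and 441 CPM. *Lss* (0.260), for lanosterol synthase of the cholesterol pathway, measured 22.1, 17.7 and 19.0 CPM against 31.2, 58.9 and 39.4 CPM. *Cyb5r3* (0.270), for cytochrome b5 reductase, measured 549, 565 and 528 CPM against 956, 1658 and 933 CPM.

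*Bmp7*, *D130043K22Rik*, *Acat2*, *Slc25a21*, *Echdc1*, *Them7* and *Abcd3* completed the nearest 10, with distances from 0.260 to 0.330. The median distance over all genes compared was 2.10. Of the 10 genes themselves *Idh1* (0.594), *Acly* (0.609) and *Slc25a1* (0.627) lay nearest their own median pattern, with 88 to 109 other genes nearer. *G6pdx* (3.22) lay farthest, farther than the median gene.

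Markers of other liver cells moved with the genotype, and in whole liver fewer cells of a type and less RNA per cell cannot be told apart. The 8 hepatocyte markers summed to 55434 to 67881 CPM in SHMT2 fl/fl mice and 69049 to 102649 CPM in SHMT2 HKO mice, with 2 of them called higher. All 5 cholangiocyte markers were called lower (132 to 244 CPM against 22.9 to 30.6 CPM), as were 4 of 7 stellate cell and fibroblast markers (1188 to 1268 CPM against 286 to 742 CPM), 4 of 6 macrophage markers and 3 of 7 lymphocyte markers. Macrophage markers summed to 512 to 679 CPM against 306 to 365 CPM, although *Clec4f*, a marker of Kupffer cells, rose by 2.83 (23.9, 8.80 and 13.9 CPM against 129, 137 and 65.9 CPM, adjusted p = 0.00391). The lymphocyte markers summed to 15.1 to 18.7 CPM against 5.24 to 7.30 CPM, while endothelial markers summed to 160 to 186 CPM against 227 to 266 CPM with 2 of 6 called higher. The part of these shifts in the changes of the 10 genes was not tested.

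Fat cells also express several of the 10 genes. The 6 adipocyte markers, of which 2 passed the filter and 1 was called higher, summed to 6.74 to 12.5 CPM in SHMT2 fl/fl mice and 16.8 to 114 CPM in SHMT2 HKO mice, mostly through *Cfd*, for adipsin, at 91.1, 62.2 and 10.9 CPM. The defining marker *Adipoq* measured 2.67 CPM in SHMT2 HKO mouse 1 and 0 in mice 2 and 3, and *Plin1* measured 4.24, 0.0506 and 0.118 CPM. In SHMT2 HKO mouse 2, where the 10 genes were highest with TMM, the 6 markers summed to 68.4 CPM. The part of these transcripts in the changes of the 10 genes was not tested.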

How the data were processed

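Total liver RNA from 6 mice was sequenced as read pairs. Per the labels and the study's methods, the authors trimmed reads with Trimmomatic 0.36, mapped them by STAR 2.5.2b on GRCm38 plus ERCC sequences, and counted unique gene hits (the processing notes name featureCounts of Subread 1.5.2). The authors deposited whole counts per gene, not normalized. Columns were mapped to mice by their labels, and WT stands for SHMT2 fl/fl and KO for SHMT2 HKO.

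The 92 ERCC RNAs entered neither library sizes nor tests. Among 49671 gene IDs, 345 had no name in the annotation (GENCODE M21, GRCm38) and held 0.0416% of gene counts. A count of 3 was 0.0734 to 0.152 CPM. In edgeR 4.0.16 (R 4.3.3), filterByExpr set the genes kept, TMM the scaling, and the robust quasi-likelihood F test (two-sided) compared the genotypes. Adjusted p-values are Benjamini-Hochberg values over 16089 genes, and 95% intervals use the t distribution of the fit. Alternatives were library size alone, upper-quartile and ERCC scaling, 2 other filters, non-robust dispersions, DESeq2 1.42.0, limma-voom (limma 3.58.1), a replicate block from the numbers in the labels, and fits without each mouse. Profiles and SDs used log2(CPM + 0.5). Windows around gene starts came from RefSeq (GRCm38.p6).

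The 10 genes, the lists and the alternatives were chosen with earlier results of these data known. The genes named are the 10, *Shmt2*, up to 3 called genes per list and direction with the largest change, fixed isoforms and regulators, and the 10 nearest profiles. *Gss*, *Ikbkg*, *Clec4f* and the adipocyte markers named were chosen for their overlap or after their values were seen. The AMPK subunits that were not called are named beside *Prkab2*. The fit was tested on simulated counts that used the dispersions of these data. Changed genes were few there beside those called here, and the raised ones had a median fitted rise of 1.99 on the log2 scale. Of 193 changed genes 162 were recovered, and 14 unchanged genes were called among 15702 tested. Recovery of smaller changes, or with as many changed genes as were called here, was not simulated. Both groups were given the same dispersion for each gene, so the larger spread among SHMT2 HKO mice was not simulated either.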

Additional observations from a re-analysis of the deposited data

How the results depend on the processing

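The number of genes called was 4663, and it was 2866 with ERCC scaling and 2426 to 5597 when 1 mouse was left out, lowest without SHMT2 fl/fl mouse 3 and 3023 without SHMT2 HKO mouse 2. Of the 10 genes 9 were called, 2 with ERCC scaling and 5 to 9 when 1 mouse was left out, with 5 without any SHMT2 fl/fl mouse. Of the listed genes 48 were called, 23 with library size alone, 6 with ERCC scaling and 19 to 55 with 1 mouse left out. Of all calls 43.1% were higher, beside 9.87% with library size alone, 32.5% with upper-quartile scaling and 3.73% with ERCC scaling. SHMT2 HKO mouse 2 was highest for 10 genes with TMM and for 1 with ERCC scaling. *Acaca* turned to -0.02 with ERCC scaling, and *Pgd* to -0.32 with library size alone, -0.61 with ERCC scaling and from -0.08 to 0.26 when 1 mouse was left out, lowest without SHMT2 HKO mouse 2. The scaling factor accounts for the shift of every gene under another scaling, and fewer samples enter each fit with a mouse left out; the cause of the other changes was not tested. Over the single changes of the 10 genes under 15 alternatives, 123 of 150 values kept direction and side of the threshold, 23 lost the call and 4 turned sign.

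Mice with the same number did not deviate together (correlations of -0.0305, 0.0512 and -0.0992), so the replicate block was only an alternative. With the replicate block 3584 genes, 9 of the 10 genes (*Acaca* 0.64 with adjusted p = 0.0441, *G6pdx* -0.72 with adjusted p = 0.0445) and 33 listed genes were called. Per coding length the SHMT2 fl/fl levels were 215 for *Slc25a1*, 175 for *Idh1*, 72.6 for *Me1*, 63.7 for *Pgd*, 40.2 for *Fasn*, 32.6 for *Acly*, 23.1 for *Acss2*, 14.2 for *Acaca*, 10.4 for *G6pdx* and 7.16 CPM per kb for *Acacb*.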
